A study of Mus musculus with 19 samples.

Results

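The vomeronasal receptor genes Vmn1r and Vmn2r and the Mas-related receptor genes Mrgpr were examined for protein-coding variants in A223, a mouse squamous cell carcinoma line. A gene was taken if its symbol starts with Vmn1r, Vmn2r or Mrgpr and the exome carries a called genotype at a missense position (the amino acid changes) or a synonymous position (it does not). This gave 67 genes of 4270 with such a call, namely 49 Vmn1r, 9 Vmn2r and 9 Mrgpr genes, holding 656 of 20424 calls. These are called coding calls here. The rule used the presence of a call and its class, and no level or count.

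The series set CD8 T cells of mice that rejected transplanted A223 tumours beside those of mice whose tumours progressed. Only its bulk A223 data are used here: 1 exome library and 1 polyadenylated RNA library of tumour cells grown in culture without further treatment named in the labels, which call the line C57BL/6-derived. The line stands for 1 culture, with no replicate, so no test was made and all differences are descriptions. Variants are differences from the reference genome, and normal tissue of the same mouse was not analysed here, so a call is not thereby a mutation of the tumour.

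Vomeronasal receptors are G protein-coupled receptors of the sensory neurons of the vomeronasal organ, which detect pheromones and other social cues. Type 1 receptors (Vmn1r) are small, carried by neurons that use the G protein Gnai2, and encoded within a single coding exon, whereas type 2 receptors (Vmn2r) have a large ligand-binding domain outside the cell and belong to neurons that use Gnao1. Mas-related receptors (Mrgpr) sit mainly on sensory neurons of pain and itch, on mast cells and on other immune cells. All of these families lie in tandem arrays of similar genes.

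The table lists 564674 positions, with 209790 exome and 393066 RNA genotypes. It gives the number of RNA reads at each position. Exome depth, reads per allele and mapping quality were not used here, and reads of near-identical copies could be placed on the wrong gene, which was not tested. Calls in Mrgpra, Mrgprx1, Vmn1r and Vmn2r genes are therefore uncertain in this respect. Intervals are exact Clopper-Pearson 95% intervals, cover counting error only, and treat calls of 1 gene as independent, which neighbouring calls are not.

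Sequence around the starts of these genes is shown first, since it also holds exome and RNA calls. RefSeq (GRCm38.p6) gives 57 of the 67 genes a window from 250 bases before to 50 bases after the gene's start, and 23 of these windows (40.4%) held an exome call. The same 23 held one when missense and synonymous calls were left out, against 16.5% of the 3720 windows of all genes with a coding exome call. The 6 windows printed were chosen after their calls were seen. They show the most densely called one (Vmn2r117), the heterozygous and homozygous kinds in 1 run of genes (Vmn1r175 against Vmn1r180 and Vmn1r183), and the Mrgpr windows called mostly in RNA (Mrgpra1, Mrgpra4). Capitals mark positions with a call in exome or RNA, and the letters are the reference, 5′ to 3′ on the gene's strand. Vmn2r117 lies at chr17:23479548-23479847 on the minus strand, Vmn1r175 at chr7:23809151-23809450 (minus), Vmn1r180 at chr7:23952137-23952436 (plus), Vmn1r183 at chr7:24054524-24054823 (plus), Mrgpra1 at chr7:47354191-47354490 (minus) and Mrgpra4 at chr7:47982247-47982546 (minus).
Vmn2r117: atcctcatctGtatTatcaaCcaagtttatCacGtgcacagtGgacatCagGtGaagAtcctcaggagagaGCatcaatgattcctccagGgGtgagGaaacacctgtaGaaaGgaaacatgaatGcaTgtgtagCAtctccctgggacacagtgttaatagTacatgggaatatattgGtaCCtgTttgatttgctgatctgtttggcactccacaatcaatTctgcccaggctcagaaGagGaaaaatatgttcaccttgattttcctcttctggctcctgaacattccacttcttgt
Vmn1r175: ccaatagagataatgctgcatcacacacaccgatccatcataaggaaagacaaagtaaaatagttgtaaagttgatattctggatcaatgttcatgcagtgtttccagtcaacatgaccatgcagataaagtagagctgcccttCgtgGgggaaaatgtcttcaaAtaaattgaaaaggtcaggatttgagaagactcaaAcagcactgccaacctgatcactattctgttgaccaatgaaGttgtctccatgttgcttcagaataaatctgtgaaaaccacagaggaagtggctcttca
Vmn1r180: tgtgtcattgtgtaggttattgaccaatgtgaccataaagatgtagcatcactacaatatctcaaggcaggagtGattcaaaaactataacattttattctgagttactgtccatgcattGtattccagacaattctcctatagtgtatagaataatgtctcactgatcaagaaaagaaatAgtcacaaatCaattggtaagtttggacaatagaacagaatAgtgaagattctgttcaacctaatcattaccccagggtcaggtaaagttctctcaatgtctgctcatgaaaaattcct
Vmn1r183: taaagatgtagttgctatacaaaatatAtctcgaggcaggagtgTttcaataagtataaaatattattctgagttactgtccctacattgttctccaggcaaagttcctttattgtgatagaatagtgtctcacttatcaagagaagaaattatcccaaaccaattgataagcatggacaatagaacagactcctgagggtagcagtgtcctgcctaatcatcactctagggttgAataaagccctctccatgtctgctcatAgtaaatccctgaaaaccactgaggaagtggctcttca
Mrgpra1: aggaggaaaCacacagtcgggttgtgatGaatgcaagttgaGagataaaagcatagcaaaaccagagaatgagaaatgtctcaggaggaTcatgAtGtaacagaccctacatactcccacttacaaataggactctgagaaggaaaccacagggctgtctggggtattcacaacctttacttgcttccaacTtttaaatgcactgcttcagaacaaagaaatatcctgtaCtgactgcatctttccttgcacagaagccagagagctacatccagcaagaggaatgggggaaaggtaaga
Mrgpra4: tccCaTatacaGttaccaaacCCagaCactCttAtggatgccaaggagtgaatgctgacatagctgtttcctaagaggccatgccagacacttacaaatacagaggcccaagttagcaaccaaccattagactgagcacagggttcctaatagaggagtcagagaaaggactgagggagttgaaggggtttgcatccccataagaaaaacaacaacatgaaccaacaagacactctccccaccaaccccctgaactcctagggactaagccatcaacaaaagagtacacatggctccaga
The Vmn2r117 window held 29 exome calls, all heterozygous, and none of the 32851 windows held more. The Vmn1r175 window held 5 heterozygous calls, whereas those of Vmn1r180 and Vmn1r183 held 5 and 4 calls, all homozygous. Of the 4 in Vmn1r183, 1 is the missense p.Ser5Gly, which is also among its coding calls. Window and coding zygosity did not always match among Vmn1r genes of chromosome 7. The Vmn1r177 window held 3 homozygous calls against 6 heterozygous of 7 coding calls. The Vmn1r169 window held 2 heterozygous calls against 3 homozygous coding calls. In Vmn1r167 all 3 window calls and all 7 coding calls were homozygous. The Mrgpra1 window held 3 homozygous exome calls and 6 RNA genotypes, of which 5 were at positions without an exome call. The Mrgpra4 window held 8 genotypes seen in RNA alone, at 12 to 34 RNA reads, and 0 exome calls.

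Missense calls outnumbered synonymous calls in all 3 families, while synonymous calls were the more numerous in the whole table. Without chromosome 17 the missense per synonymous ratio of the Vmn2r genes was 1, and without chromosome 7 that of the Vmn1r genes was 1.10. The 67 genes carried 422 missense and 234 synonymous calls, a ratio of 1.80, while all genes carried 7922 and 12502, a ratio of 0.634. Missense calls were 64.3% of the coding calls of the 67 genes (interval 60.5 to 68), where the background over all coding calls is 38.8%. Olfactory receptor genes (Olfr), another chemosensory family in tandem arrays, lay nearer to the table as a whole, with 487 missense and 653 synonymous calls in 199 genes (42.7%, interval 39.8 to 45.7). The taste and trace amine receptors (Taar, Tas1r, Tas2r) had 4 missense and 3 synonymous calls in 6 genes, too few to place.

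By family, Vmn1r genes carried 157 missense and 103 synonymous calls (ratio 1.52, missense share 60.4%, interval 54.2 to 66.4). Vmn2r genes carried 92 and 48 (ratio 1.92, 65.7%, interval 57.2 to 73.5). The 6 Mrgpra genes carried 165 and 72 (ratio 2.29, 69.6%, interval 63.3 to 75.4). Mrgprx1, the mouse receptor for BAM peptides, carried 8 and 8. Mrgprd, a receptor for beta-alanine, and Mrgprf carried 0 missense and 3 synonymous calls between them. The intervals of Vmn1r, Vmn2r and Mrgpra overlapped one another, and all 3 lay above those of Olfr and of all genes. No Mrgprb gene had a coding exome call.

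**Figure D1:**
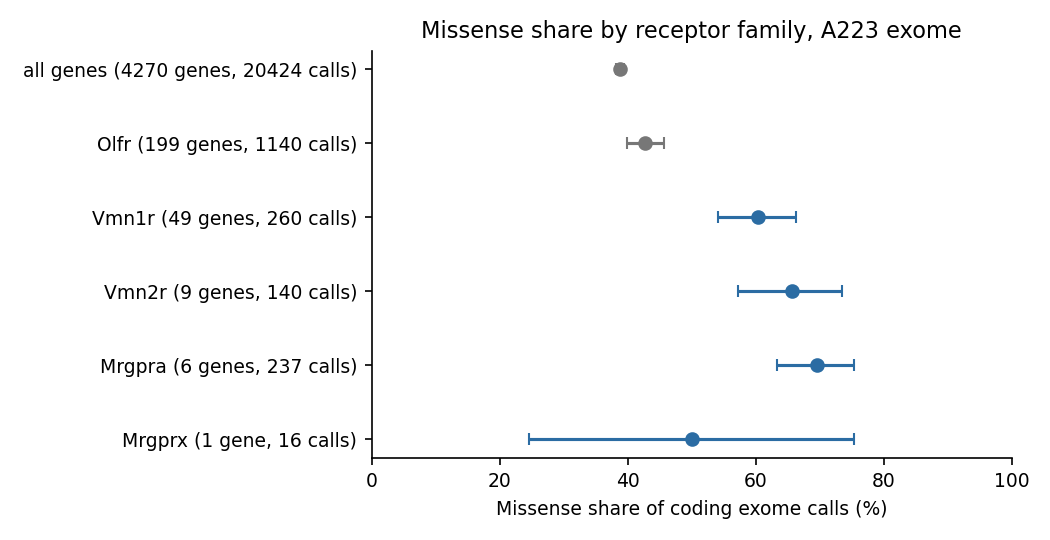
The x axis gives missense calls as a percent of missense plus synonymous exome calls, with exact 95% intervals as bars, for all genes, Olfr genes and the receptor families. Vmn1r, Vmn2r and Mrgpra lie between 60.4% and 69.6%, above all genes at 38.8%.

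Counted by gene, 60 of the 67 genes (89.6%) had at least 1 missense call, against a background of 60.4% of genes. More missense than synonymous calls were found in 41 (61.2%), against 26.8%. Genes with many calls reach such counts more easily: 23 of the 67 genes (34.3%) were at or above the 90th percentile of calls per 100 codons, which is by construction 10% of genes. The rule of at least 1 call is met by 11 of the 67 genes with exactly 1. Just outside it lay Vmn1r101, Vmn1r119, Vmn1r151, Vmn1r158 and Mrgpra2b, which had only truncating calls.

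Amino acid exchanges kept their class about as often as elsewhere, and transversions made up more of the base changes. Of the missense calls of the 67 genes, 39.3% kept the class of the amino acid, and 39% did over all genes. Transitions per transversion were 1.29 in the 67 genes (368 against 286) and 2.88 over all genes (15151 against 5267). They were 1.22 in Vmn1r, 1.59 in Vmn2r and 1.21 in Mrgpr genes. Calls also fell together on codons: 7.57% of the called codons of the 67 genes were hit by 2 or more calls, against a background of 1.78%. The share was 2.77% in Vmn1r, 6.06% in Vmn2r and 13.9% in Mrgpr genes.

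Heterozygous calls made up 82% of the coding calls of the 67 genes (538 of 656, interval 78.9 to 84.9), against a background of 62.7%. A high share was not particular to these families, since Olfr genes were heterozygous at 995 of 1140 calls (87.3%, interval 85.2 to 89.2). Homozygous calls of these genes were found on chromosome 7 alone. On chromosomes 4, 5, 6, 10, 13, 14, 17 and X every coding call of these genes was heterozygous, and chromosome 7 held 118 homozygous calls. The remaining genes of chromosome 7 had 26.7% heterozygous calls (578 of 2168), and these families had 69.5% there (269 of 387). On chromosome 6 the 22 Vmn1r genes were heterozygous at 118 of 118 calls, while other genes there were at 53%. Nearby genes resembled them: other genes within 1 Mb were heterozygous at 118 of 120 calls around Vmn1r4 to Vmn1r27. They were at 16 of 16 around Vmn1r39 and 36 of 36 around Vmn1r40 to Vmn1r53. Such neighbours were at 33 of 38 on chromosome 5, 1 of 1 on 10, 66 of 67 on 13 and 270 of 270 on 14. On chromosome 17 they were at 0 of 5. Vmn2r121 on the X chromosome was heterozygous at 14 of 14 calls, and other X-linked genes at 63.9%. All calls were homozygous in 15 of the 67 genes (background 33.7%), and 7 had both kinds (background 6.04%).

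Joined wherever calls lay within 1 Mb, the 67 genes formed 16 groups along the chromosomes, and the 4 largest held 43 genes and 568 calls (86.6%). They were the Vmn1r runs on chromosomes 6 and 7, the Mrgpr run on chromosome 7 and the Vmn2r run on chromosome 17. In the 5 Mb windows that hold 100 or more coding calls of any gene lay 89% of their calls, against a background of 59.6%. The calls of the 67 genes themselves count towards these windows. With windows counted from the calls of other genes alone, which was chosen after the data were seen, 72.9% of their calls lay in such a window, against 58.6% of the calls of other genes. The other groups were Vmn1r39, the set of Vmn1r40, Vmn1r47 and Vmn1r53 and Vmn1r77 alone, then Vmn1r91, Vmn1r117, Vmn1r120, Vmn1r122 and Vmn1r123, with 12 calls in the set of Vmn1r40 and 8 in the latter. On further chromosomes lay Vmn1r3 (1 call), Vmn2r18 (10), Vmn2r80 with Vmn2r82 (2), Vmn2r89 (5), Vmn2r121 (14) and the 5 genes Vmn1r189, Vmn1r194, Vmn1r195, Vmn1r196 and Vmn1r209 (13). Vmn2r63 (3) and Mrgprf with Mrgprd (3) lay on chromosome 7 as well.

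The Vmn1r run on chromosome 6 spans Vmn1r4 to Vmn1r20 and Vmn1r27, at 56956998 to 58216012. Its 18 genes carried 92 calls, all heterozygous, with 48 missense and 44 synonymous calls (ratio 1.09). The 13 other genes with coding calls inside it or within 1 Mb were heterozygous at 118 of 120 calls, with a ratio of 0.622. The most called genes of the run were Vmn1r7 (7 missense, 8 synonymous), Vmn1r13 (7 and 6) and Vmn1r8 (7 and 5). Vmn1r7 and Vmn1r8 carried the same 2 amino acid changes at the same codons, p.Arg219Lys and p.Ala226Thr. Apart from the run, Vmn1r39 carried 12 synonymous and 2 missense calls, all heterozygous (missense share 14.3%, interval 1.78 to 42.8).

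The Vmn1r run on chromosome 7 spans Vmn1r167 to Vmn1r183, at 23504786 to 24055485, and joins a homozygous stretch with a heterozygous core. Its 15 genes carried 117 calls, of which 54 were heterozygous and 63 homozygous, with 81 missense and 36 synonymous calls (ratio 2.25). Vmn1r174 had 21 calls, all heterozygous. Its neighbour Vmn1r175 had 16 heterozygous calls of 18, Vmn1r176 had 7 of 8 and Vmn1r177 had 6 of 7. These 4 adjacent genes, picked out after their values were seen, were heterozygous at 50 of 54 calls (92.6%, interval 82.1 to 97.9). The other 11 genes of the run were heterozygous at 4 of 63 (6.35%, interval 1.76 to 15.5).

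Within the heterozygous core 4 calls were homozygous. Vmn1r175 had p.Leu251Phe and p.Val258Phe, Vmn1r176 had the synonymous p.Val207Val, and Vmn1r177 had p.Ser256Cys. The change p.Val258Phe was homozygous in Vmn1r175 and heterozygous in Vmn1r176. Conversely, Vmn1r168 was heterozygous at 3 of 4 calls and Vmn1r171 at 1 of 6, in the homozygous stretch. The 4 core genes carried 41 missense and 13 synonymous calls (ratio 3.15), and the other 11 carried 40 and 23 (ratio 1.74). Their missense shares had overlapping intervals, 75.9% (62.4 to 86.5) in the core and 63.5% (50.4 to 75.3) in the others. Calls in Vmn1r174 ran from codon 55 to 283 of 313, those of Vmn1r177 from codon 250 to 305 of 309. Farther along, Vmn1r180 and Vmn1r183 had 11 calls each, all homozygous, and shared p.Arg212His. The 23 other genes within 1 Mb of the run were heterozygous at 44 of 251 calls (17.5%). They carried 131 missense and 120 synonymous calls (ratio 1.09, missense share 52.2%, interval 45.8 to 58.5). This ratio lay below that of the run and above the 0.634 of all genes.

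**Figure D2:**
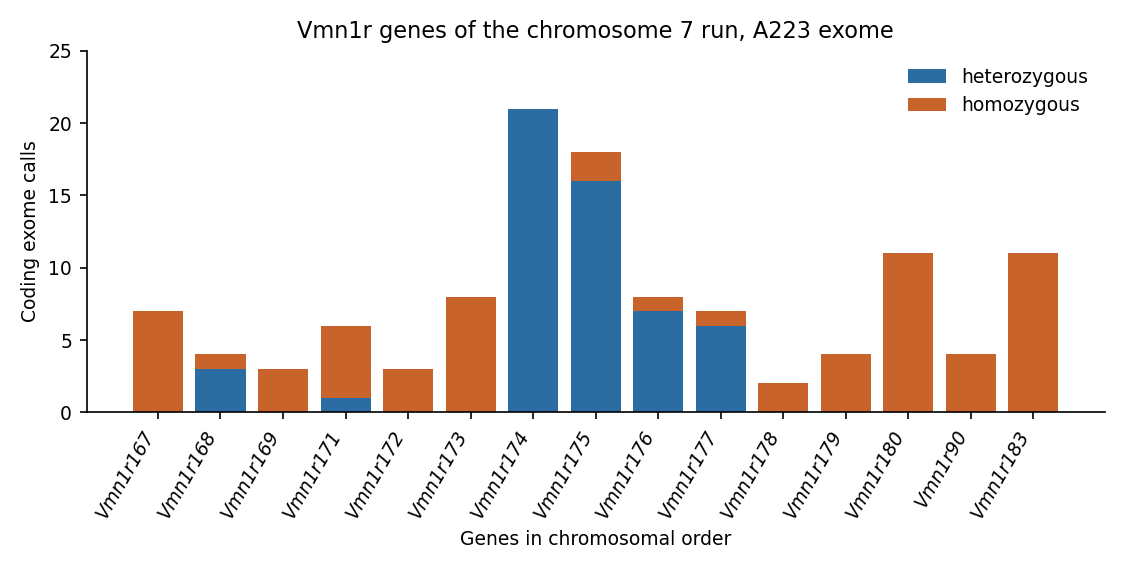
Bars give missense plus synonymous exome calls of the 15 Vmn1r genes of the chromosome 7 run in order, split into heterozygous and homozygous calls. Vmn1r174 to Vmn1r177 hold 50 of the 54 heterozygous calls. The gene named Vmn1r90 in the deposited table lies where RefSeq places Vmn1r181.

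The Vmn2r run on chromosome 17 consists of Vmn2r114, Vmn2r115 and Vmn2r117, at 23290950 to 23479546, and holds 106 of the 140 Vmn2r calls. All 106 were heterozygous, with 75 missense and 31 synonymous calls (ratio 2.42). Srrm2, the only other gene with coding calls within 1 Mb, was homozygous at 5 of 5. Vmn2r115 had 41 missense and 17 synonymous calls over codons 71 to 856 of 857, ranking 16th of 4270 genes by number of calls. Vmn2r117 had 17 and 8, and Vmn2r114 had 17 and 6. The 6 most called Vmn2r genes also included Vmn2r121 (7 and 7), Vmn2r18 (3 and 7) and Vmn2r89 (4 and 1).

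Calls recurred between Vmn2r114 and Vmn2r115 with an offset of 1 codon. The proteins are 856 and 857 residues long in the table. The same residue before and after was found in 10 changes, 8 of them 1 codon apart and 2 at the same codon. They included p.Ser436Phe and p.Ser437Phe, p.Gln442His and p.Gln443His, p.Asn452Ser and p.Asn453Ser, p.Glu461Val and p.Glu462Val, and p.Ser841Tyr and p.Ser842Tyr, naming Vmn2r114 first. The stop codons p.Arg450* and p.Arg451* and the frameshift p.Ser81fs, found in both genes, were further cases. These 10 made up 37% of the 27 calls compared in Vmn2r114 and 15.9% of the 63 in Vmn2r115, truncating calls included. Vmn2r115 and Vmn2r117 shared the stop p.Gly507*. No other pair of genes in the 3 families had more than 3 such recurrences.

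The Mrgpr run on chromosome 7 spans Mrgpra6 to Mrgprx1, at 47185886 to 48021466, and holds 253 of the 256 Mrgpr calls. Its 7 genes were heterozygous at 205 of 253 calls (81%, interval 75.6 to 85.7), with 173 missense and 80 synonymous calls. The 16 other genes within 1 Mb were heterozygous at 0 of 138 calls, which allows a share of up to 2.17% by a limit of 3 counts, for counting error only, with a ratio of 0.353. Zygosity divided the genes of the run. Mrgpra9, Mrgpra1 and Mrgpra2a were homozygous at 33 of 33 calls. Mrgpra3, Mrgpra4 and Mrgprx1 were heterozygous at 192 of 201.

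Mrgpra4 was the most densely called gene of the table, with 35.5 calls per 100 codons, against a median of 0.578 over all genes. It carried 83 missense and 28 synonymous calls, all heterozygous, from codon 4 to codon 304 of 313. Only 2 genes of the table had more calls. Its changes followed one another closely, as in p.Ile167Asn, p.Asp168Tyr and p.Ser169Tyr or in p.Thr174Ser, p.Asn175Thr and p.Phe176Tyr. Codons with 2 or more calls were 17% of its called codons.

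Mrgpra3, the mouse receptor for chloroquine on itch neurons, had 22.5 calls per 100 codons, with only 2 genes of the table above it. It carried 52 missense and 22 synonymous calls, of which 65 were heterozygous and 9 homozygous. The heterozygous ones lay between codons 72 and 212 of 329. The homozygous ones lay among them, as with p.Arg119Met, p.Asp173Asn, p.Tyr179Phe, p.Ser188Tyr and p.Asp194Asn, except p.Ser269Arg and the synonymous p.Leu215Leu beyond. At codons 116 and 197 the exome held 2 different alternative bases. Codon 173 carried 3 calls, p.Asp173Asn, p.Asp173Gly and p.Asp173Glu, the first homozygous and the others heterozygous.

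Mrgpra6, which RefSeq lists as a transcribed pseudogene and the table as protein-coding, was split along its length. Its 13 heterozygous calls lay between codons 235 and 262, and its 6 homozygous calls between codons 13 and 227, numbered on transcripts of different length. Mrgprx1 calls lay in codons 178 to 248 of 322, all 16 heterozygous. Mrgpra9 had 17 homozygous calls (12 missense) from codon 130 to 323. Mrgpra1, reported in mice as a receptor for bilirubin, had 14 homozygous calls (6 missense) from codon 39 to 320. Mrgpra2a had 2, the missense p.Glu316Val and a synonymous call. Mrgpra3 and Mrgpra9 shared p.Gly178Ser, heterozygous in the first and homozygous in the second. At codon 202 Mrgpra3 had p.Met202Leu and Mrgprx1 the reverse, p.Leu202Met. This was the only such reversed pair in the 3 families. It was matched by codon number, and these proteins of 329 and 322 residues were not aligned.

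**Figure D3:**
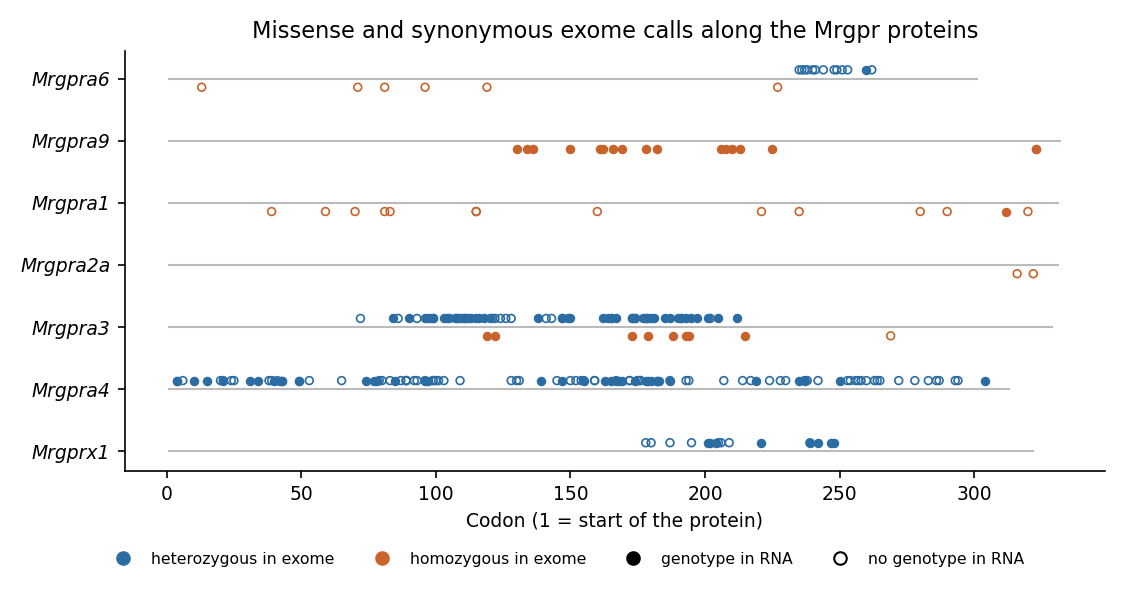
Each circle is a missense or synonymous exome call at its codon along the protein, for the 7 genes of the chromosome 7 run. Blue is heterozygous and orange homozygous in the exome, filled circles have an RNA genotype and open ones have none. Mrgpra4 is called from codon 4 to 304 and Mrgprx1 from codon 178 to 248.

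Among the 3 families, RNA reads at coding calls were found in Mrgpr genes alone. None of the 400 coding calls in the 58 Vmn1r and Vmn2r genes was covered by an RNA read, which by the same limit allows a share of up to 0.75% of calls. Of the 256 Mrgpr calls, 240 (93.8%) were covered, against a background of 48.3%, and 126 (49.2%) had 20 or more reads, against 28.5%. Olfr calls were covered at 4 of 1140, by at most 2 reads. Read numbers are given at variant positions and are no measure of a gene's expression per length.

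Among Mrgpr genes, Mrgprx1 was covered by 33 to 54 reads (median 40) at its 16 calls. Mrgpra3 had 0 to 68 reads (median 35) and Mrgpra4 0 to 99 (median 17). Mrgpra9 had 4 to 30 (median 12). Lower medians were seen in Mrgpra6 (0 to 53, median 1), Mrgpra1 (0 to 32, median 0) and Mrgpra2a (3 at both calls). Coverage was uneven within genes: 5 of 19 Mrgpra6 calls and 1 of 14 Mrgpra1 calls had 20 or more reads. Mrgprf had 46 reads at its only call and Mrgprd 2 at each of its 2. The ranges of Mrgpra3, Mrgpra4, Mrgpra6 and Mrgprx1 overlapped.

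**Figure D4:**
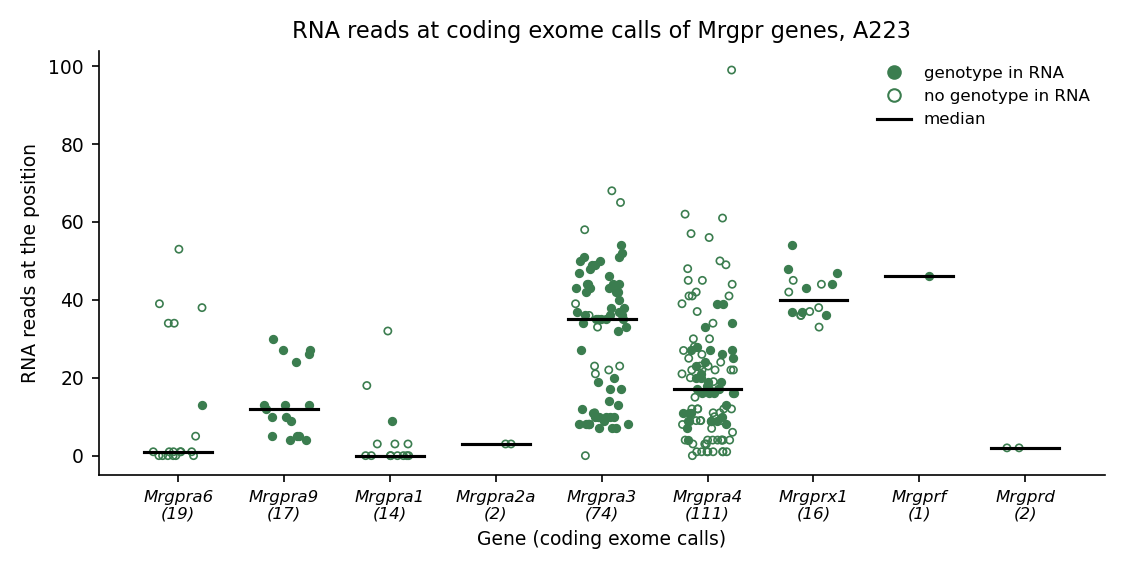
The y axis gives RNA reads at each coding exome call of the 9 Mrgpr genes, with the number of calls in brackets and the median as a line. Filled circles have an RNA genotype. Mrgprx1 lies between 33 and 54 reads, and Mrgpra3 and Mrgpra4 range from 0 to 68 and 0 to 99.

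RNA returned a heterozygous genotype at a smaller share of the heterozygous exome calls of Mrgpr genes than over all genes. At 20 or more reads, leaving out the calls with 2 alternative bases, 112 Mrgpr calls were heterozygous in the exome. RNA was heterozygous at 49 (43.8%, background 71.9%), homozygous at 6 and without a genotype at 57 (50.9%, background 23.7%). No homozygous reference genotype was listed in RNA at the coding calls of these genes. A call without an RNA genotype may therefore hold reference reads alone or be undetermined, which cannot be told apart here. Of 13 homozygous calls at this depth, 12 were homozygous in RNA (background 95.1%). At 1 or more reads, 26 of 33 were (background 84.6%), with 1 of 6 in Mrgpra1 and 0 of 2 in Mrgpra2a. Mrgpra3 returned 30 of 41 heterozygous calls (73.2%), Mrgpra4 14 of 49 (28.6%), Mrgprx1 4 of 16 and Mrgpra6 0 of 5.

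Read numbers overlapped between calls with an RNA genotype and those without. In Mrgpra4, heterozygous calls with an RNA genotype had a median of 17 reads and those without had 15, up to 99. In Mrgpra3 the medians were 35 and 33, and in Mrgprx1 43.5 and 37.5. Mrgpra9, homozygous at all 17 calls, was homozygous in RNA at all 17 with 4 to 30 reads. RNA also carried 102 coding positions of Mrgpr genes without an exome genotype, 73 of them missense, at a median of 18 reads. These were 28.5% of the 358 coding positions called in Mrgpr genes by exome or RNA, against a background of 6.24% over all genes (1359 of 21783, at a median of 35 reads). Mrgpra4 had 43 of these, Mrgprx1 17, and Mrgpra3, Mrgpra6 and Mrgpra9 12 each. Mrgpra1 had 4 and Mrgprf 2. Vmn1r and Vmn2r genes had none.

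RNA genotypes were not limited to the genes of the Mrgpr run. The run of 835.6 kb held 9071 of them, 2.31% of all RNA genotypes of the table, or 10.9 per kb, against 0.877 per kb in the 1 Mb on either side. Exome genotypes were 1.67 per kb within the run and 0.828 beside it. The latter value averages unlike sides, with 1644 exome genotypes in the 1 Mb before the run and 12 in the 1 Mb after it. The side before the run was thus about as densely called in the exome as the run itself. Positions that the table puts between genes held 2627 of the RNA genotypes, 2522 of them without an exome call, at a median of 23 reads for the latter. Positions beside genes held 5353, and introns 426. In the 25 kb interval that begins 550 kb after the first Mrgpra6 call, between Mrgpra3 and Mrgpra4, there were 1526 RNA genotypes. All 1555 listed positions of this interval, with or without an RNA genotype, had a median of 101 RNA reads. Before the run the 1 Mb held 1667 RNA genotypes, and the 1 Mb after it held 87. What these reads derive from was not tested.

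**Figure D5:**
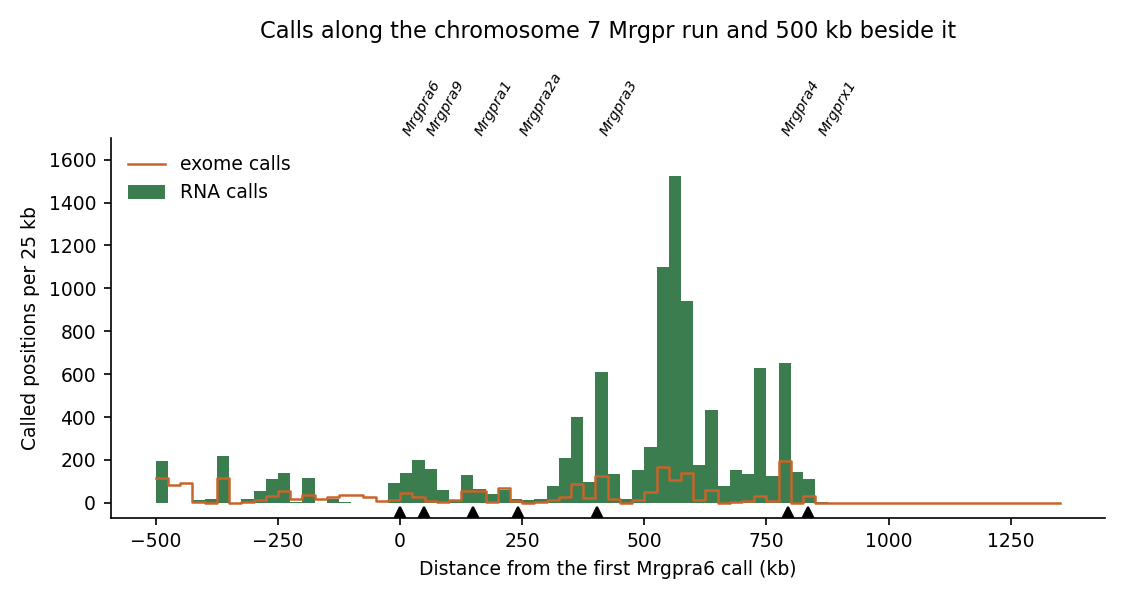
Green bars give positions with an RNA genotype and the orange line those with an exome genotype, per 25 kb, against the distance from the first Mrgpra6 call. Triangles mark the first call of each named gene. RNA genotypes peak at 1526 in the interval from 550 kb, between Mrgpra3 and Mrgpra4.

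Truncating calls (stop gained, start lost, frameshift or splice site) were frequent in the Mrgpr and Vmn2r genes. All genes together had 504, or 2.47 per 100 coding calls. Mrgpr genes had 39 (15.2 per 100), Vmn2r genes 12 (8.57 per 100), Vmn1r genes 7 (2.69 per 100) and Olfr genes 32 (2.81 per 100). These counts include the 5 genes that had truncating calls alone.

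Mrgpra3 had 17 truncating calls, 12 heterozygous and 5 homozygous, of which 15 had an RNA genotype. Its 5 homozygous ones lay between p.Ala260fs and p.Leu271fs, at 0 to 5 RNA reads. Its heterozygous ones fell into a group from p.Thr104fs to p.Cys113fs and another from p.Asp181fs to p.Tyr187*. Several lay within a few bases of one another, so that their joint effect on the reading frame cannot be read from single calls. Mrgpra4 had 11, all heterozygous and none with an RNA genotype, among them p.Trp44*, p.Trp144*, p.Tyr165* and p.Trp239*.

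Mrgprx1 had 5 heterozygous frameshifts between p.Leu186fs and p.Pro208fs, of which 3 had an RNA genotype. Mrgpra9 had the homozygous p.Val185fs and p.Asn186fs, both homozygous in RNA. Mrgpra6 had p.Gly9fs, homozygous, and p.Leu266*, heterozygous. Mrgpra2b had p.Ala272fs and p.Leu273fs, heterozygous in exome and RNA.

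Vmn2r115 had 6 truncating calls, all heterozygous, including p.Gln411*, p.Arg451* and p.Gly507*. Vmn2r114 had 4, p.Ser81fs, p.Arg450*, p.Tyr690* and p.Ser694*, and Vmn2r117 had p.Asn235fs and p.Gly507*. In Vmn1r genes they were single: p.Arg8* in Vmn1r40, p.Thr314fs in Vmn1r5 and p.Ile261fs in Vmn1r8, all heterozygous. Vmn1r119 (p.Ala138fs) and Vmn1r151 (p.Val98fs) were heterozygous, and Vmn1r101 and Vmn1r158 carried the same p.Thr82fs, homozygous in both.

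Genes that work with these receptors were read from lists, beside a background of 18.1% of RefSeq protein-coding genes with a coding exome call. Of 17 genes of vomeronasal signalling and accessory function, 4 had a coding exome call (12 calls, 1 missense): Ano1, a calcium-activated chloride channel, with 102 to 125 RNA reads at its calls, Nrp2, an axon guidance receptor, with 171 to 278, Robo2 with 0 to 2 and Ano2 with 0. None of 9 H2-Mv genes, which are expressed with Vmn2r receptors, and none of 5 vomeronasal formyl peptide receptors had one. Of 10 genes of Mrgpr signalling, 3 had coding calls: Trpa1, an irritant channel, with 13 calls (1 missense) at 0 reads, Gna14 with 2 and Nppb with 2, each at 0 reads. The shares of these lists lie near the background or rest on too few genes to be placed. Gnaq, the G protein alpha subunit used by several Mrgpr receptors, and Bdnf were read by 50 RNA reads at their only exonic call. Trpv1, likewise without a coding call, had 0 reads at its only exonic call.

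Markers of cell types could be read only where they hold a variant. Of 10 keratinocyte markers, Cdh1 alone had exonic exome calls, 15 of them, each at 0 RNA reads, so the labelled epithelial origin could not be checked against the other 9. Of 9 vomeronasal neuron markers only Ano1 held calls, and of 8 sensory neuron markers Isl1 (4 to 25 reads), Trpa1 and Trpv1 (both 0 reads). The mast cell markers Fcer1a and Mcpt4 and the T cell markers Cd8a and Cd3e had 0 reads at their calls.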

How the data were processed

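Exome DNA and RNA of cultured A223 cells were read in 1 library each. The authors' reads were processed with BWA and GATK, per the submitters' processing notes, with versions and genome build not given in the sources used here. The deposited table holds, per the file headers, a genotype in exome and RNA and the count of RNA reads at each position, without normalization. Of 3416 deposited reference bases inside RefSeq GRCm38.p6 windows, all 3416 matched. Its 2 copies were identical and 1 was used. In 34 cells the read count was no number, none in these genes, and these were left out. The T cell tables were not used.

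One call per gene and position was counted when missense or synonymous was its only effect. Genotypes with 2 alternative bases (2 calls) counted as heterozygous. Missense share, zygosity, RNA reads, distance and truncating calls were tallied in Python 3.11.15 with pandas 2.3.3, with Clopper-Pearson intervals from scipy 1.17.1. The tally was tested on simulated data. With 1 library of each kind no test was made.

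Genes named were every Mrgpr gene, the 6 Vmn1r and 6 Vmn2r genes with most coding calls, genes with a truncating call or 20 or more RNA reads, and up to 5 a family with both zygosities. Other genes, the runs and their neighbours, changes recurring at most 1 codon apart and the windows at gene starts were picked after values were seen. Members and lists were chosen with earlier results of these data known. Some single amino acid changes are not reported here.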

Additional observations from a re-analysis of the deposited data

How the results depend on the processing

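The missense per synonymous ratio of the 67 genes, 1.80, was 1.47 without chromosome 7, 1.53 with calls within 10 bases counted once and 1.51 in homozygous calls. It fell to 1.10 without chromosome 7 in Vmn1r genes. In Vmn2r genes it was 1 without chromosome 17 and 0.5 in the 3 homozygous calls, and in Mrgpr genes 1.40 in homozygous calls. The heterozygous percent of the 67 genes, 82, was 78.3 without Mrgpra4, 100 without chromosome 7, 72.4 over all exome calls of these genes and 74.8 as a mean over genes. In Vmn1r genes it was 100 without chromosome 7 and 66.3 over all calls. In Vmn2r genes it was 91.2 without chromosome 17, 92.2 over all calls and 88.9 as a mean over genes. In Mrgpr genes it was 66.9 without Mrgpra4, 62.2 over all calls and 61.8 as a mean over genes. The percent covered by RNA was 31.3 at 5 or more reads and 19.2 at 20 or more in the 67 genes, and 80.1 and 49.2 in Mrgpr genes, fewer by construction. In 1 Mb windows the share in dense windows was 86.1% at 20 and 83.8% at 50 or more calls. It was 72.9% with windows counted without the calls of the 67 genes, chosen after the data were seen, since fewer calls then count. The cause of the other shifts was not tested. The remaining 41 of 67 alternatives moved values by less than their interval or, for the 16 groups of genes, by less than 1.5 times. All Mrgpr genes lie on chromosome 7, so leaving it out gave no value. Precision is limited by counting, by 1 library of each kind and by neighbouring calls that are not independent.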

Other observations

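Most genes of the vomeronasal families had no coding exome call. Of the protein-coding genes that RefSeq lists by symbol in GRCm38.p6, 49 of 231 Vmn1r genes (21.2%), 9 of 124 Vmn2r genes (7.26%) and 5 of 6 Mrgpra genes had one, against 18.1% of all protein-coding genes. The share of Vmn1r genes was 43.1% on chromosome 6 (22 of 51), 16.7% on chromosome 7 (21 of 126) and 13.9% on chromosome 13 (5 of 36). Of 52 Vmn2r genes on chromosome 7, only Vmn2r63 was called, and of 32 on chromosome 17 only Vmn2r114, Vmn2r115 and Vmn2r117. None of 7 Mrgprb genes was called.

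RNA genotypes near the vomeronasal genes lay outside their coding sequence. Positions listed under a Vmn1r gene held 349 RNA genotypes without an exome call, of which 171 were between genes, 173 beside genes and 5 in introns. Those under a Vmn2r gene held 400, of which 163 were in introns.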
